A study of Homo sapiens with 8 samples.

Results

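The 41 genes described here, whose products make ribosomes in the nucleolus, were followed across RNA-seq libraries of MEG-01, a human cell line established from a megakaryoblastic leukaemia. The members were taken by gene symbol from the deposited gene tables, and all 41 were found among the 60754 genes listed and passed the filter on low counts. MEG-01 cells were left untreated, given the phorbol ester PMA (phorbol 12-myristate 13-acetate) at 100 nM for 48 h, given PMA with Ceefourin 2 (20 µM, 48 h), or given Ceefourin 2 alone for 48 h at a dose not given in the sources used here. PMA switches on protein kinase C and pushes these cells towards the megakaryocyte fate, and Ceefourin 2 is an inhibitor of the transporter ABCC4. No time was given for the untreated cells in the sources used here. Each of the 4 groups had 2 libraries of the same cell line. The labels do not say that the 2 libraries came from separate cultures, so p-values measure only the spread between these libraries, which may be technical.

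Ribosome production starts when RNA polymerase I copies ribosomal DNA into a long precursor RNA. Small nucleolar ribonucleoproteins (snoRNPs) then modify it, the box C/D class by methylation and the box H/ACA class by pseudouridylation. Large assembly machines fold and cut the precursor into the small and the large subunit. Many of these genes are known targets of the MYC transcription factor, and ribosome production usually slows when blood precursor cells leave the cell cycle. The libraries were made from polyadenylated RNA, so the precursor rRNA and the small nucleolar RNAs themselves were not measured here.

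Libraries held between 44430300 and 89950900 expected counts, and no member had fewer than 671 counts in any library. The megakaryocyte marker genes summed to between 540 and 695 TPM (a level per transcript length, scaled to the same total in each library) without PMA and to between 1449 and 1614 TPM with it. PF4, a defining platelet gene, was at or near 0 in every library, and the lymphoid markers CD3E and MS4A1 were at 0. ABCC4, the target of Ceefourin 2, stood at 344 and 305 CPM (counts scaled to library size with TMM factors) untreated and at 594 and 545 CPM with PMA. Mitochondrial genes took 2.55% to 3.94% of counts without PMA and 4.53% to 9.61% with it, the highest shares being in replicate 1 of PMA (9.61%) and of PMA with Ceefourin 2 (8.32%). Erythroid marker genes summed to 9628 and 10572 TPM untreated and 31697 and 38177 with PMA. They summed to 26145 and 33192 with PMA and Ceefourin 2, and to 4660 and 5030 with Ceefourin 2 alone. With Ceefourin 2 alone 8 of the 10 were called lower than in untreated cells, beside 0.722% of all genes. HBG2, a fetal globin gene, made up most of these sums, so they do not show how most of the 10 genes moved. With PMA against untreated 6 of the 10 were called lower and 3 higher, with a median log2 fold change of −1.29. Over all genes 25.7% were called lower and 27.9% higher there. In PMA with Ceefourin 2 against Ceefourin 2 alone 5 of the 10 were lower and 4 higher, with a median of −0.66. The shares of all genes called there were 25.6% lower and 28% higher. Monocyte and macrophage markers summed to between 179 and 221 TPM without PMA and to between 383 and 470 TPM with it. Of the 6 tested, 3 were called higher and 2 lower with PMA against untreated. Fibroblast, endothelial and epithelial markers summed to between 101 and 137 TPM without PMA and to between 325 and 399 TPM with it. Of the 7 tested, 5 were called higher and 2 lower in the same comparison. Lymphoid markers summed to between 0.66 and 3.03 TPM over all libraries. The part of these markers and of the mitochondrial share in the results below was not tested. Values of the members without replicate 1 of PMA and of PMA with Ceefourin 2 are given beside the main ones.

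The members covered a wide range of levels. NPM1, which encodes the abundant nucleolar chaperone nucleophosmin, was the highest in each group and made up 39% to 46.3% of the summed member level. Untreated cells had 5377 and 4944 TPM of NPM1. FBL, the methyltransferase of box C/D snoRNPs, followed with 1252 and 1171 TPM, and NCL, the histone and RNA chaperone nucleolin, with 976 and 887 TPM. FBL and NCL came next after NPM1 in all groups, NCL above FBL with PMA alone, where they stood at 413 and 434 TPM for FBL and 457 and 441 TPM for NCL. NOP10 and NHP2, small core proteins of box H/ACA snoRNPs, had the next highest levels in every group. UTP20, a very large scaffold protein of the small subunit, was the lowest member throughout, with 11.4 and 7.1 TPM untreated.

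Summed over the members, the level was 12499 and 11083 TPM in untreated cells and 12662 and 11551 TPM with Ceefourin 2 alone. It was 5637 and 5604 TPM with PMA and 5553 and 5413 TPM with PMA and Ceefourin 2. The PMA groups lay at 0.477 and 0.465 of the untreated mean, and the groups without PMA did not overlap those with it. These sums are shares of the messenger RNA pool of whole cultures, so fewer cells of a type and less RNA per cell cannot be told apart.

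**Figure D1:**
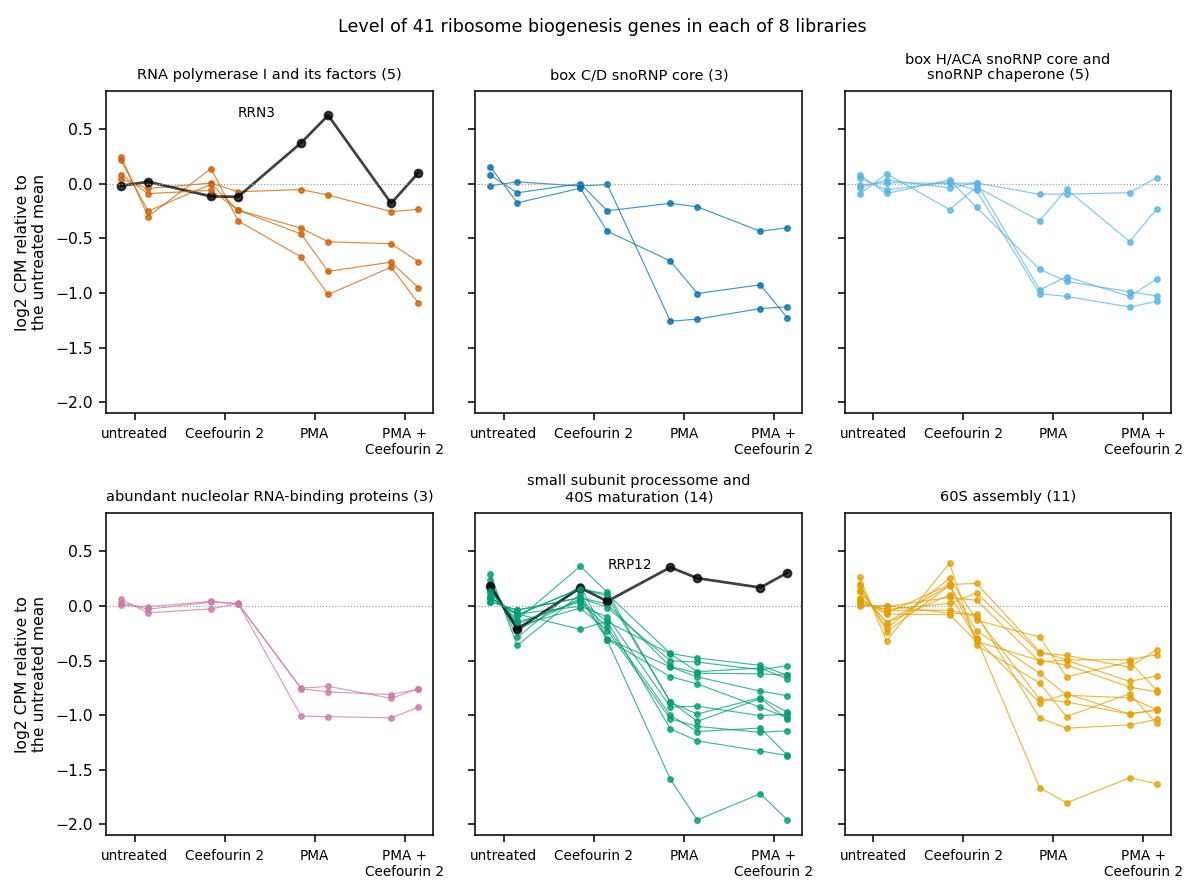
Level of each member in each of the 8 libraries, as log2 of its CPM over the untreated mean, in 6 panels by role, with a line joining the values of each gene. Points are single libraries, 2 per group with replicate 1 on the left; most lines step down with PMA and with PMA plus Ceefourin 2, while RRN3 and RRP12 (black) do not.

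Sequence near the start sites was read for the members because so many of them moved together. RefSeq promoter windows (GRCh38.p14, 250 bases before to 50 bases after each start) were matched for 35 of the 41 members. BOP1, NOLC1, NOP58, RRP12, RRP1B and RRS1 had no match. The canonical E-box CACGTG, a palindrome that MYC and MAX are known to bind, was searched together with CGGAAG (ETS core), GCGCATGC (core of the NRF1 site) and TCTCGCGA (core of the CGCG element), each on both strands and in all windows of a gene. These motifs do not contain one another. The E-box was present in 16 of the 35 members (45.7%), against 1380 of 11090 tested genes with a window (12.4%) and 8.77% of all genes in the promoter table. It was found in 33 of 124 other ribosome assembly genes (26.6%), 12.5% of DNA replication genes and 6.35% of cytosolic ribosomal protein genes. CGGAAG was present in 51.4% of members and 37.1% of tested genes, TCTCGCGA in 11.4% and 2.76%, and GCGCATGC in 5.71% and 6.19%. Median GC content was 63.3% for the members and 64.3% for tested genes. These shares are descriptions of letters in a window and do not show binding.

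Of the members at least 2-fold lower with PMA, NPM1 and HEATR1 had a window without an E-box, and NOLC1 and RRP1B had no window. The members that hold an E-box include FBL, UTP20, NAT10, LYAR and GNL3, which were each at least 2-fold lower with PMA, and NOP10 and NOP2, which did not pass the test. Their E-boxes are printed for that contrast, as 30 bases of the gene's own strand from 5′ to 3′ in GRCh38.p14, with CACGTG in capitals.
UTP20 (chr12:101280083-101280112, plus strand): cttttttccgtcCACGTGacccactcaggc
FBL (chr19:39846356-39846385, minus strand): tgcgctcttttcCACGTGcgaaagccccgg
NAT10 (chr11:34105602-34105631, plus strand): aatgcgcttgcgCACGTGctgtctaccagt
LYAR (chr4:4290068-4290097, minus strand): cggcggcgagtcCACGTGctccccgcggcc
GNL3 (chr3:52686026-52686055, plus strand): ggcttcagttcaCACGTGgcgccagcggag
NOP2 (chr12:6568242-6568271, minus strand): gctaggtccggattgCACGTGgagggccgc
NOP10 (chr15:34343130-34343159, minus strand): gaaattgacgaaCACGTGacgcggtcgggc
In all 16 members the nearest CACGTG began between 64 bases before and 35 bases after the start. A longer stretch is shown for UTP20, the member with the largest fall, covering the 200 bases before its start.
UTP20 (chr12:101279905-101280104, plus strand): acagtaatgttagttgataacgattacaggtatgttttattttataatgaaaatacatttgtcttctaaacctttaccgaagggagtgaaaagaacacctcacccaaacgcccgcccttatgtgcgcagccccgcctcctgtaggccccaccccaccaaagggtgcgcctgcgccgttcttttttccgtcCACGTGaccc
Its E-box began 10 bases before the start, and NOP10, whose level did not pass the test, had one that began 11 bases before. None of the 5 RNA polymerase I members had an E-box, while 4 of these 5 held CGGAAG.

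Among the members with an E-box 14 of 16 were called lower with PMA (adjusted p below 0.05 by edgeR). Their median log2 fold change was −0.85. Among those with a window and no E-box 16 of 19 were called lower and 1 higher, with a median of −0.68. The ranges of the 2 sets overlapped, from −1.76 to −0.10 and from −1.07 to 0.51. Over all genes tested 25.7% were called lower and 27.9% higher. These shares were not taken apart by E-box, and the difference between the sets was not tested.

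**Figure D2:**
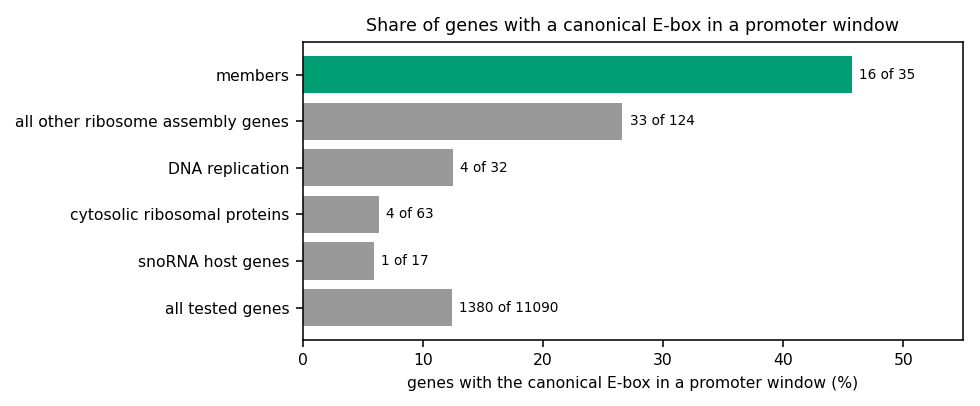
Percentage of genes in each set with CACGTG in a RefSeq promoter window of 300 bases, with the counts printed beside each bar. The members' bar reaches 45.7%, above the 26.6% of other ribosome assembly genes and the 12.4% of all tested genes.

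PMA against untreated asks what phorbol ester differentiation does to this machinery. Of the 41 members 34 fell and 1, RRN3, rose, and the median log2 fold change was −0.74, against −0.002 over all 17314 genes tested. Over all genes 25.7% were called lower and 27.9% higher (53.6% in either direction), by edgeR's quasi-likelihood test with Benjamini-Hochberg adjustment. Both PMA libraries lay below both untreated libraries for 38 members and above them for 2, RRN3 and RRP12, while DKC1 overlapped. The same separation held for 38.7% of all genes below and 39.1% above. At least 2-fold falls were seen in 9 members, and 9 of the members that fell did so by less than 1.5-fold. Without replicate 1 of PMA and of PMA with Ceefourin 2, the libraries with the highest mitochondrial share, the members' median was −0.80. It was −0.54 without untreated replicate 1 and −0.67 without PMA replicate 2. The main fit has no replicate term. In the fit with a replicate block 36 members fell and 2 rose, beside 31.7% and 32.7% of all genes.

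Among RNA polymerase I and its factors 3 of 5 fell, 1 rose and POLR1C did not pass the test. POLR1B, a large core subunit of the enzyme, had 193 and 132 CPM untreated and 102 and 80.4 CPM with PMA. Its untreated libraries were far apart, yet both lay above both PMA libraries, and it fell by 0.83 ± 0.23 on the log2 scale (SE, adjusted p = 0.016 by edgeR). POLR1A, the largest and catalytic subunit, fell by 0.62 ± 0.18, and UBTF, the factor that keeps ribosomal DNA open, fell by 0.47 ± 0.11. These 3 calls were each lost when untreated replicate 1 or PMA replicate 2 was left out. POLR1C, a subunit shared by RNA polymerases I and III, had 62.7 and 59.1 CPM untreated and 58.7 and 56.7 CPM with PMA (log2 fold change −0.08 ± 0.08, adjusted p = 0.45 by edgeR). On log2(TPM + 1) POLR1C was called lower (−0.32, adjusted p = 0.030 by limma).

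RRN3 (chr16:15060022-15094317, minus strand, GRCh38) encodes the initiation factor TIF-IA, which carries RNA polymerase I to the promoter. It had 186 and 191 CPM untreated, 244 and 291 CPM with PMA, 167 and 202 CPM with PMA and Ceefourin 2, and 174 CPM in both libraries of Ceefourin 2 alone. Both PMA libraries were above all the others. RRN3 rose by 0.51 ± 0.12 with PMA (adjusted p = 0.0075 by edgeR), a 1.42-fold rise. In TPM it stood at 81.7 and 76.3 untreated and 85.8 and 99.9 with PMA, and on that scale, log2(TPM + 1), the change was 0.23 and did not pass the test (adjusted p = 0.11 by limma). The call was also lost without PMA replicate 2 (adjusted p = 0.055 by edgeR). The 3 gene entries named as copies of RRN3 held 3.66% to 8.99% as many counts as RRN3. Their sequences were not compared with it, and whether reads were split between them was not tested.

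Of the 3 core proteins of box C/D snoRNPs among the members 2 fell. FBL (chr19:39834458-39846414, minus strand, GRCh38) had 690 and 708 CPM untreated and 292 and 296 CPM with PMA. Its libraries agreed within each group, and it fell by 1.25 ± 0.07 (adjusted p = 8.28e-06 by edgeR), which is 2.38-fold and was exceeded only by UTP20 and RRP1B among the members. NOP56, which sits beside FBL in the particle, fell by 0.85 ± 0.18, from 333 and 265 to 183 and 149 CPM. NOP58, the partner of NOP56 in the same particle, had 233 and 209 CPM untreated and 195 and 191 CPM with PMA. Its groups did not overlap, but its log2 fold change of −0.19 ± 0.10 did not pass the test (adjusted p = 0.14 by edgeR). On log2(TPM + 1) NOP58 was called lower (−0.49, adjusted p = 0.018 by limma).

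In the box H/ACA group NHP2, GAR1 and the chaperone NOLC1 fell, and DKC1 and NOP10 did not pass the test. NHP2 went from 179 and 189 CPM to 93.9 and 102 CPM (log2 fold change −0.91 ± 0.09), and GAR1 from 47.5 and 42.2 to 26.1 and 24.1 CPM (−0.84 ± 0.12). NOLC1, the chaperone that helps assemble both snoRNP classes, went from 519 and 481 CPM to 249 and 245 CPM (−1.02 ± 0.08). DKC1, the pseudouridine synthase, had 274 and 312 CPM untreated and 231 and 283 CPM with PMA, and these groups overlapped (−0.19 ± 0.14, adjusted p = 0.30 by edgeR). In the fit with a replicate block, DKC1 was called lower (−0.19, adjusted p = 0.014 by edgeR). NOP10 had 135 and 137 CPM untreated and 127 CPM in both PMA libraries (−0.10 ± 0.08, adjusted p = 0.34 by edgeR). On log2(TPM + 1) both DKC1 (−0.44, adjusted p = 0.011 by limma) and NOP10 (−0.35, adjusted p = 0.0089 by limma) were called lower. Differences between genes were not tested.

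All 3 abundant RNA-binding proteins of the nucleolus fell. NPM1 (chr5:171387116-171411137, plus strand, GRCh38) had 2028 and 2005 CPM untreated and 1002 and 999 CPM with PMA, a 2.02-fold fall (−1.01 ± 0.08, adjusted p = 3.25e-05 by edgeR). Of the 46 gene entries named as copies of NPM1, 21 had counts, together 4.59% to 4.93% as many as NPM1. Their sequences were not compared with it. NCL went from 1389 and 1332 CPM to 804 and 788 CPM (−0.77 ± 0.08), and DDX21, a helicase that acts on precursor rRNA, from 538 and 494 CPM to 306 and 310 CPM (−0.74 ± 0.08).

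The small subunit group fell almost as a whole, 13 of 14 members, with a median log2 fold change of −0.80. UTP20 (chr12:101280109-101386616, plus strand, GRCh38) had 68.9 and 43.9 CPM untreated and 18.8 and 14.5 CPM with PMA. Although its untreated libraries differed from each other, both were above both PMA libraries, and its 3.38-fold fall was the largest of the members (−1.76 ± 0.25, adjusted p = 0.00059 by edgeR). NAT10, which acetylates cytidines in rRNA, went from 164 and 149 CPM to 71.7 and 66.5 CPM (−1.18 ± 0.09). HEATR1, a scaffold of the subcomplex that links RNA polymerase I transcription to processing, went from 188 and 148 CPM to 82.1 and 78.3 CPM (−1.07 ± 0.13). LYAR, a zinc finger protein of the nucleolus, went from 69.4 and 57 CPM to 31.6 and 28.5 CPM (−1.07 ± 0.14).

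Smaller falls were found in other members of this group. DDX10 (helicase), RRP9 (a protein of the U3 snoRNP) and WDR43 (a subunit of the same early subcomplex as HEATR1) fell by 0.96 ± 0.11, 0.93 ± 0.13 and 0.92 ± 0.08. WDR3, UTP15, NOP14, UTP4, TSR1 and BYSL fell by between 0.46 (BYSL) and 0.68 (WDR3), and TSR1 and BYSL are factors of later small subunit steps. UTP15 and UTP4, which belong to the same early subcomplex as HEATR1, and WDR3 were not called without untreated replicate 1. Counting the main analysis and its alternatives, UTP15 was called in 13 of 19, and UTP4 and WDR3 in 17 of 19 each. RRP12, a HEAT repeat protein needed for export of subunits, was the exception in the group. It had 78.1 and 59.2 CPM untreated and 87.6 and 81.8 CPM with PMA, and its groups did not overlap, but its log2 fold change of 0.30 ± 0.13 did not pass the test (adjusted p = 0.088 by edgeR). In the fit with a replicate block it was called higher (0.31, adjusted p = 0.039 by edgeR), and on log2(TPM + 1) the change was 0.06.

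In the large subunit group 10 of 11 members fell, with a median log2 fold change of −0.71. RRP1B (chr21:43659548-43696079, plus strand, GRCh38), a nucleolar protein of large subunit processing, had 298 and 219 CPM untreated and 81.5 and 74.1 CPM with PMA, a 3.32-fold fall (−1.73 ± 0.19, adjusted p = 0.00016 by edgeR). GNL3, the nucleolar GTPase nucleostemin, went from 148 and 149 CPM to 72.9 and 68.3 CPM (−1.07 ± 0.08). The groups of both genes were far apart compared with the spread of their libraries. MRTO4, a relative of the stalk protein P0 that holds its place during assembly, fell by 0.87 ± 0.08. NIP7, NOP16 and RRS1, the last of which helps load the 5S RNA particle, fell by 0.84 ± 0.15, 0.71 ± 0.16 and 0.85 ± 0.27. RRS1 and NOP16 were not called without untreated replicate 1, and RRS1 was also not called without PMA replicate 1 or without PMA replicate 2.

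BOP1, PES1 and WDR12 form the PeBoW complex, which is required for processing of the large subunit rRNA, and they fell by similar amounts. BOP1 went from 299 and 273 CPM to 214 and 203 CPM (−0.46 ± 0.08), PES1 from 173 and 166 CPM to 126 and 124 CPM (−0.44 ± 0.09), and WDR12 from 175 and 158 CPM to 118 and 114 CPM (−0.52 ± 0.10). PPAN, another large subunit factor, fell by 0.50 ± 0.07, and a read-through transcript that contains it held 4.31% to 7.98% as many counts. NOP2, a methyltransferase of the large subunit rRNA, had 89.2 and 68.2 CPM untreated and 64.5 and 50.1 CPM with PMA. Its log2 fold change of −0.45 ± 0.19 did not pass the test (adjusted p = 0.078 by edgeR), and it was called in the fit with a replicate block (−0.45, adjusted p = 0.00031 by edgeR).

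How the libraries are scaled sets how deep these falls appear. With scaling by library size alone 38 members fell and 1 rose, and on log2(TPM + 1) 38 fell and none rose. Beside them 34.3% and 33.7% of all genes were lower, and 22.1% and 18.5% higher. In those 2 analyses the median of all genes was −0.19 and −0.14, and calls that were higher made up 39.2% and 35.4% of all calls, against 52.1% with TMM scaling. The members' medians there were −0.93 and −0.98.

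**Figure D3:**
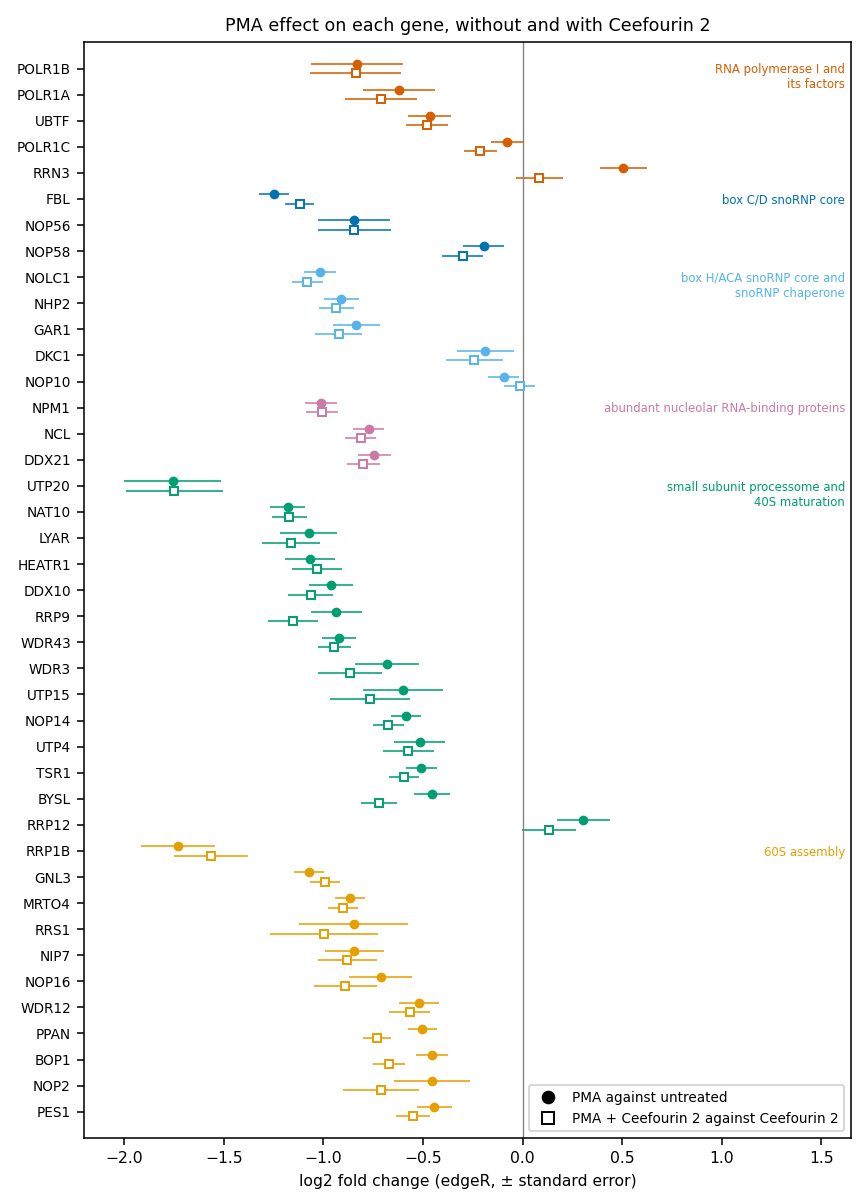
Log2 fold change of each member from edgeR with its standard error, for PMA against untreated (filled circles) and PMA with Ceefourin 2 against Ceefourin 2 alone (open squares), coloured by role. Nearly all points lie left of 0, UTP20 (−1.76) and RRP1B (−1.73) farthest, and RRN3 lies right of 0 at 0.51 without Ceefourin 2 and at 0.08 with it.

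PMA was also applied in the presence of Ceefourin 2, and PMA with Ceefourin 2 was set against Ceefourin 2 alone, in 4 libraries that the first comparison did not use, though the fit shares 1 estimate of the spread. Of the 41 members 36 fell and none rose, with a median log2 fold change of −0.84. Over all genes 25.6% were called lower and 28% higher by edgeR (53.5% in either direction). Both PMA libraries lay below both libraries of Ceefourin 2 alone for 37 members and above them for 1, RRP12, against 36.8% and 39.4% of all genes. All 34 members that fell with PMA alone fell here too, and NOP58 (−0.30 ± 0.10, adjusted p = 0.037 by edgeR) and NOP2 (−0.71 ± 0.19, adjusted p = 0.015 by edgeR) were added. Falls of at least 2-fold were seen in 10 members. UTP20 fell by 1.75 ± 0.25, RRP1B by 1.56 ± 0.19, FBL by 1.12 ± 0.07 and NPM1 by 1.01 ± 0.08. POLR1C (−0.21), DKC1 (−0.24), NOP10 (−0.02), RRP12 (0.13) and RRN3 (0.08) did not pass the test, and DKC1 (adjusted p = 0.0042 by edgeR) and POLR1C (adjusted p = 0.014 by edgeR) were called lower in the fit with a replicate block. The members' median was −0.68 without Ceefourin 2 alone replicate 1 and −0.82 without PMA plus Ceefourin 2 replicate 2. Without replicate 1 of PMA and of PMA with Ceefourin 2 it was −0.85.

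No member was called for the inhibitor itself. In PMA with Ceefourin 2 against PMA 0 members were called by edgeR, 2 had an unadjusted p under 0.05, and the median log2 fold change was −0.09, while 0.918% of all genes were called higher and 0.913% lower (1.83% in all). The lowest adjusted p was that of RRN3 (−0.54 ± 0.12, adjusted p = 0.069 by edgeR), whose PMA libraries at 244 and 291 CPM lay above the 167 and 202 CPM seen with the inhibitor. RRN3 was called lower by DESeq2 (adjusted p = 0.0023), without the low-count filter (adjusted p = 8.11e-05 by edgeR) and in the fit with a replicate block (−0.54, adjusted p = 0.008 by edgeR). Over all alternatives its adjusted p ran from 8.11e-05 to 0.39, and its direction did not change. In the fit with a replicate block NOP56 was called lower too (−0.22, adjusted p = 0.042 by edgeR), and 3.82% of all genes were called lower and 4.74% higher. Without replicate 1 of both PMA groups no member was called, and over all genes 0 were called higher and 1 lower, against 159 and 158 with all libraries. Both libraries lay below both PMA libraries for 20 members and above them for 3, FBL, NOP10 and RRP1B, against 21.9% and 23.5% of all genes.

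Ceefourin 2 alone against untreated gave no called member by edgeR, 1 member with an unadjusted p under 0.05, and a median of −0.04, while 0.959% of all genes were called higher and 0.722% lower (1.68% in all). That member was BOP1, with 299 and 273 CPM untreated and 327 and 329 CPM with the inhibitor (0.20 ± 0.08, adjusted p = 0.32 by edgeR). In the fit with a replicate block NOP56 was called lower (−0.23, adjusted p = 0.038 by edgeR), with 3.60% of all genes lower and 4.66% higher, and DESeq2 called no member. The members' median was 0.09 without untreated replicate 1, −0.09 without untreated replicate 2, −0.09 without Ceefourin 2 replicate 1 and 0.04 without Ceefourin 2 replicate 2. Over all genes 166 were called higher and 125 lower, against 14 and 16 without untreated replicate 1, 20 and 16 without untreated replicate 2, 87 and 28 without Ceefourin 2 replicate 1, and 74 and 53 without Ceefourin 2 replicate 2. Both inhibitor libraries lay above both untreated libraries for 6 members and below them for 4, against 19.8% and 20.9% of all genes, and the groups overlapped for 31. In the interaction of the 2 agents no member was called by edgeR or DESeq2 and 1 had an unadjusted p under 0.05, RRN3 (−0.42 ± 0.17, adjusted p = 0.65 by edgeR), while 0.0116% of all genes were called higher and 0% lower. Its fold change with PMA, 0.51 without and 0.08 with the inhibitor, is therefore not shown to differ. These comparisons share their PMA and untreated libraries with the ones above.

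The other genes of the pathway, 145 in 6 lists, showed the same direction with PMA, with 100 lower and 6 higher. Their median log2 fold change was −0.49, and over all genes 25.7% were lower and 27.9% higher. The other RNA polymerase I genes had 12 of 18 lower, among them POLR1E (−1.12 ± 0.12), a subunit of the enzyme, and TCOF1 (−1.01 ± 0.15), the treacle protein that works with UBTF. The small subunit processome had 25 of 40 lower and 2 higher, RCL1 (0.84 ± 0.11) and DDX52 (0.22 ± 0.08), and SNU13, a protein of box C/D snoRNPs, fell by 0.96 ± 0.07. Late small subunit factors had 11 of 13 lower, RIOK1 by 1.22 ± 0.10, and the kinase RIOK3 rose by 0.94 ± 0.11. Large subunit factors had 33 of 48 lower, NLE1 by 1.19 ± 0.09, and EFL1, a GTPase that releases an anti-association factor, rose by 1.36 ± 0.10, as did GNL1 by 0.75 ± 0.09. Of the snoRNP assembly factors 8 of 11 fell, and of the exosome genes that trim rRNA 11 of 15 fell and XRN2 rose (0.33 ± 0.10). No gene of the 145 was called in either comparison of the inhibitor with its control. Of all genes 1.83% were called with PMA present and 1.68% without.

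The 20 genes that host small nucleolar RNAs in their introns had 7 lower, 1 higher and 12 not called, with a median of −0.25. Over all genes 25.7% were lower and 27.9% higher. Among the hosts DANCR (−1.10 ± 0.08), SNHG7 (−1.07 ± 0.14) and SNHG1 (−0.90 ± 0.10) fell and SNHG15 rose (0.38 ± 0.10). The 79 cytosolic ribosomal protein genes, which encode the parts that the members assemble, had a median of −0.08, with RPS2, RPSA and RPL14 lower, RPS27 higher and 75 not called. That count depended on the analysis. With scaling by library size alone 22 ribosomal protein genes were lower, and on log2(TPM + 1) 29 were. In the fit with a replicate block 27 were lower and 9 higher. The shares of all genes called lower in these analyses were 34.3%, 33.7% and 31.7%, and 32.7% were higher with the block. The ribosomal protein median stayed above that of the members in each. It was −0.27 against −0.93 with library size alone and −0.33 against −0.98 on log2(TPM + 1). In PMA with Ceefourin 2 against Ceefourin 2 alone the ribosomal protein median was 0.09 with TMM scaling and −0.12 with library size alone. DNA replication genes, a mark of cycling cells, had 37 of 38 lower and a median of −1.18, and their part in the members' falls was not tested.

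**Figure D4:**
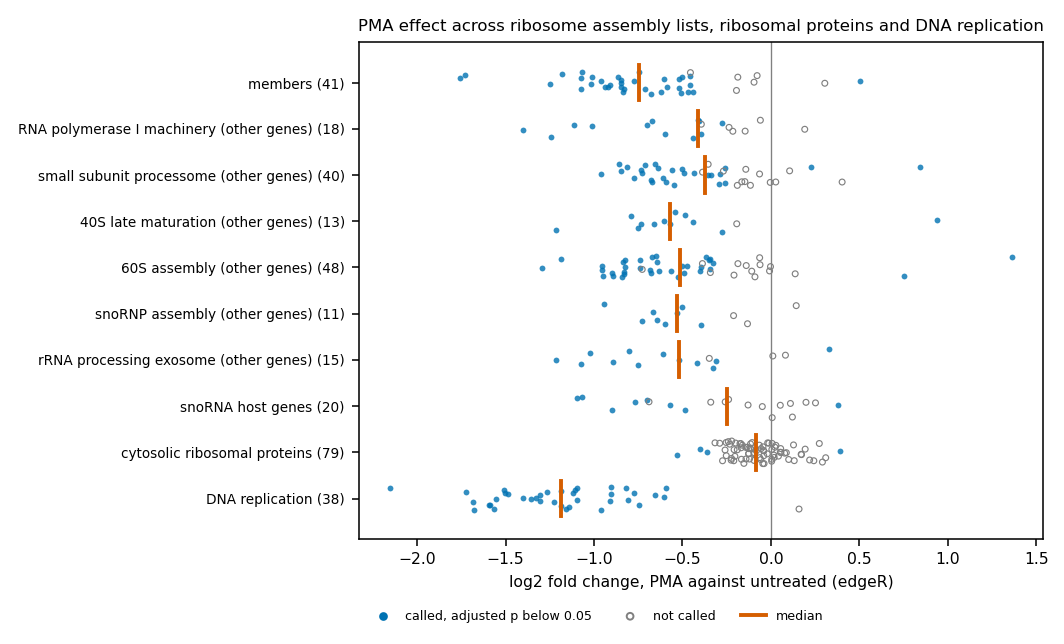
Log2 fold change of each gene with PMA against untreated, in rows for the members and 9 lists of other genes, with filled points for called genes and a bar at the median. The members' median is −0.74, that of ribosomal protein genes −0.08 and that of DNA replication genes −1.18.

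MYC, which drives many ribosome biogenesis genes, fell with the members. Its level was 961 and 784 TPM untreated, 352 and 348 TPM with PMA, 318 and 319 TPM with PMA and Ceefourin 2, and 1102 and 1024 TPM with Ceefourin 2 alone. Its log2 fold change with PMA was −1.09 ± 0.09 (adjusted p = 3.66e-05 by edgeR), and the inhibitor moved it by −0.15 with PMA and 0.18 without, neither of which passed the test. MXD1, which competes with MYC for MAX, rose from 21.5 and 21.8 CPM to 72.1 and 65.4 CPM (1.67 ± 0.11), and MAX rose by 1.12 ± 0.10. MYCN, a relative of MYC, had 2 counts over both untreated libraries and 260 over both PMA libraries, a ratio of 135 with a 95% interval of 37 to 1121 that covers counting error only, at no more than 1.5 TPM. MYCN was lower with Ceefourin 2 in PMA cells (−1.26, adjusted p = 0.044 by edgeR), the one gene of its list called for the inhibitor. Of the 20 genes in the list of the MYC network and growth regulators of rRNA genes, 8 were higher and 7 lower with PMA, with a median of 0.08, beside 27.9% and 25.7% of all genes. With scaling by library size alone 5 were higher and 8 lower, beside 22.1% and 34.3% of all genes, with a median of −0.11. Whether the genes of this list take part in the members' change was not tested.

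Replicates of the same number deviated together in the members. Across the 41 genes, the difference of replicate 1 from replicate 2 correlated between groups with Pearson's r of 0.67 to 0.90, against 0.14 to 0.36 over all 17314 genes. No set of genes with counts like those of the members was compared, so the higher r is not shown to be particular to them. These correlations run across genes, which share libraries and are not independent replicates. In 19 members replicate 1 was higher in all 4 groups, and in 4 members, DKC1, NHP2, NOP10 and FBL, replicate 2 was higher in all 4. RRS1, POLR1B and UTP20 differed the most, with mean log2 differences of 0.48, 0.42 and 0.42. RRS1 stood at 68.6 and 45.9 CPM untreated and at 75 and 44.6 CPM with Ceefourin 2 alone, which are differences of 0.58 and 0.75 on the log2 scale beside its PMA log2 fold change of −0.85. NPM1, NCL, DDX21, PPAN and GNL3 differed by less than 0.02 on average. What the replicate numbers stand for was not given in the sources used here.

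**Figure D5:**
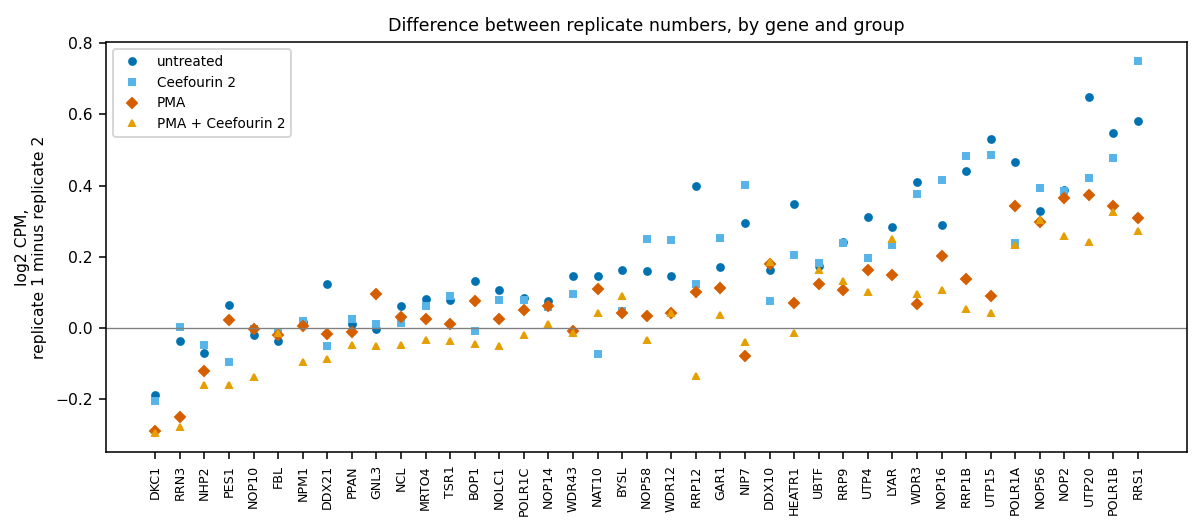
Log2 CPM of replicate 1 minus replicate 2 for each member in each of the 4 groups, with members ordered by their mean difference. Mean differences run from DKC1 at −0.24 to RRS1 at 0.48, and the 4 groups of 1 gene can lie apart, as those of RRP12 from −0.14 to 0.40.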

How the data were processed

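Stranded, paired-end mRNA libraries of MEG-01 cells were processed with STAR 2.7, RSEM 1.3.1 and the hg38 build, per the submitters' processing notes. Which annotation release was used was not given in the sources used here. As files, the authors deposited RSEM expected counts, which are not normalized, and TPM values, which have the same total in each library and carry no TMM scaling, so falls look larger in TPM. Expected counts were rounded and tested with edgeR 4.0.16 in R 4.3.3, with TMM factors of 0.92 to 1.083 and filterByExpr, which kept 17314 of 60754 genes. The quasi-likelihood test used 1 fit of 8 libraries with a mean per group, 4 residual degrees of freedom and a biological coefficient of variation of 13.6%. Benjamini-Hochberg adjustment ran over all genes tested, and a gene was called below 0.05. The SE is the absolute log2 fold change over the square root of F. DESeq2 1.42.0 and limma 3.58.1 served as alternatives, and scripts were tested on simulated data. The 41 members and the other lists were chosen with earlier results of these data known. Any member could be named. From other lists up to 4 called genes with the smallest p, and those called against the list's median, could be named, besides MYC, ABCC4 and marker genes. Same-numbered replicates deviated together. Over all genes the difference of replicate 1 from replicate 2 correlated between groups with r of 0.137 to 0.363 in all 6 pairs. The main fit has no replicate term, and a fit with a replicate block, which takes same-numbered libraries as pairs, was run as an alternative. Gene positions come from GENCODE v29 (GRCh38) and promoter sequences from RefSeq (GRCh38.p14).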

Additional observations from a re-analysis of the deposited data

Results flagged for a closer look

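BYSL and PPAN had Ceefourin 2 fold changes of opposite sign without and with PMA, and none of these changes was called. BYSL, a factor of small subunit maturation, changed by 0.13 with Ceefourin 2 alone and by −0.13 with Ceefourin 2 in PMA cells on the log2 scale, a difference of −0.27 (adjusted p = 0.76 by edgeR's interaction test). PPAN, a large subunit factor, changed by 0.06 and by −0.16, a difference of −0.23 (adjusted p = 0.72 by edgeR's interaction test). For both genes both libraries of Ceefourin 2 alone lay above both untreated libraries, as they did for 19.8% of all genes. Both libraries of PMA with Ceefourin 2 lay below both PMA libraries, as they did for 21.9% of all genes. Neither difference passed the test.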

How the results depend on the processing

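Of the 35 members called with PMA against untreated, 26 were called the same way in all 18 alternatives, and of the 36 called with PMA plus Ceefourin 2 against Ceefourin 2 alone, 29 were. The alternatives were followed for the fold change of every member in those 2 comparisons, of RRN3 in PMA plus Ceefourin 2 against PMA and in the interaction, and of BOP1 with Ceefourin 2 alone. Of these values 1441 kept their direction and side of the threshold, 45 lost a call, 33 gained one and 10 changed sign. With 1 library left out the members' median ran from −0.84 to −0.54 for PMA against untreated. Members called higher, 1 in the main analysis, numbered 0 on log2(TPM + 0.1) and log2(TPM + 1), beside 19.1% and 18.5% of all genes. They numbered 2 without the low-count filter and 2 with the replicate block, beside 17.3% and 32.7% of all genes. Members lower with Ceefourin 2 in PMA cells numbered 1 by DESeq2, 1 without the filter and 2 with the replicate block. Beside them 2.02%, 1.76% and 3.82% of all genes were lower. With Ceefourin 2 alone 1 member was lower with the replicate block, beside 3.60% of all genes. The block changed no member's call other than those of DKC1, RRP12, NOP2, RRN3, NOP56 and POLR1C given above. These 10 changes of sign were all in PMA plus Ceefourin 2 against Ceefourin 2 alone, in members that were not called. NOP10 became 0.0073 with a filter of 1 CPM in 2 libraries, −0.085 to 0.056 with 1 library left out, and 0.058 without replicate 1 of both PMA groups, an alternative added after seeing the data. RRN3 became −0.13 with library size alone, −0.24 and −0.23 on log2(TPM + 0.1) and log2(TPM + 1), and −0.060 (without PMA plus Ceefourin 2 replicate 2) to 0.22 with 1 library left out or replicate 1 of both PMA groups left out. RRP12 became −0.078 with library size alone, and −0.19 and −0.18 on the same TPM scales. The cause was not tested. In the inhibitor comparisons, where no member was called, members with a positive fold change numbered 14 with Ceefourin 2 alone, 30 without untreated replicate 1 and 27 without Ceefourin 2 replicate 2, and 7 with PMA, 13 without PMA replicate 1. No member had fewer than 671 counts in any library, and 2 libraries a group limit the precision.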
